A study of Rattus norvegicus with 64 samples.

Results

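A set of 195 transcripts lay lower in the kidney of rats given acetaminophen than in the kidney of vehicle rats at 5 h, while their levels in liver stayed within a set range. They are 195 of the 28420 transcripts in the deposited tables and are called members here. They were chosen from the median CPM of each group, where CPM is a transcript's share of its library's estimated counts, scaled to 1000000. A member had a vehicle kidney median of at least 1 CPM at 5 h, and its acetaminophen median there, with 0.5 CPM added to both medians, was at most 0.67 times the vehicle median. At least 7 of the 8 acetaminophen kidneys had to lie below the vehicle median. The same ratio in liver had to stay between 0.67 and 1.5 at 5 h and at 10 h, and vehicle liver had to stay in a somewhat wider range between the times. All kidney values at 5 h and all liver ratios were therefore used in the choice and are given as a description, without a test. The 16 kidney libraries of 10 h took no part in it and gave the tests below.

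The series measured messenger RNA in liver and kidney of 32 Sprague Dawley rats. Rats received 2 g/kg acetaminophen once, or the vehicle, polyethylene glycol at 50% in 6 ml/kg, and tissues were collected after 5 h or 10 h. The 8 groups are acetaminophen and vehicle kidney at 5 h, acetaminophen and vehicle kidney at 10 h, and the same 4 for liver, with 8 libraries each. The labels give neither age nor sex, and do not say which kidney and liver libraries share a rat. The 32 kidney libraries held 18039111 to 26148119 estimated counts and the 32 liver libraries 21467448 to 29496773, and each of the 64 libraries correlated better with every library of its own tissue than with any of the other. The transcripts carry Ensembl identifiers, and 0 of the 28420 occur in the reference tables used here. Members are therefore described by level, length and behaviour, with no gene name, sequence or position, and the tissue labels could not be checked against marker genes.

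Acetaminophen is an analgesic that in overdose injures the liver and, less often, the kidney. Cytochrome P450 enzymes, above all in hepatocytes but also in cells of the proximal tubule, turn part of the drug into a reactive quinone imine that consumes glutathione and binds to proteins. The kidney is made of many cell types along the nephron, so RNA of the whole organ mixes them: fewer cells of a type and less RNA per cell cannot be told apart.

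The conditions narrowed the transcripts in steps. Of the 28420, 14975 reached 1 CPM in vehicle kidney at 5 h, and these are the background used below, called the kidney floor. Of those, 375 had a ratio of at most 0.67, and 291 also had 7 or more acetaminophen libraries below the vehicle median. The liver condition at 5 h left 226 and that at 10 h left 195. The condition on vehicle liver over time removed no further transcript. The 3 members closest to the kidney threshold had ratios of 0.6696, 0.6698 and 0.6698, and the 3 nearest transcripts outside it that met every other condition had 0.6701, 0.6712 and 0.6716. Members and non-members thus lay side by side at the edge.

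Most members were only modestly lower at 5 h. Their median ratio was 0.601 (quartiles 0.535 and 0.645), against a median of 0.989 for the 14975 transcripts at the floor. The ratio was above 0.6 in 98 members, above 0.5 and up to 0.6 in 64, and 0.5 or less in 33. All 8 acetaminophen libraries lay below the vehicle median in 130 of the 195. The median CPM of a member was 3.01 (range 0 to 118) in acetaminophen kidney and 5.72 (range 1.0 to 188) in vehicle kidney. Members were scarcer than the background: 88 of 195 (45.1%) had a vehicle median of 1 to 5 CPM, against 22.4% at the floor, and 35 (17.9%) had at least 20 CPM, against 47.4%.

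Acetaminophen kidneys differed among themselves at 5 h. The summed level of the members had a lowest value of 1340, a median of 1678 and a highest value of 2024 CPM in acetaminophen kidneys, and 2460, 2772 and 3001 CPM in vehicle kidneys. Every acetaminophen library lay below every vehicle library, which the choice of members favours. Replicates 4, 2 and 5 had the smallest sums, 1340, 1357 and 1378 CPM, and replicates 6, 7 and 1 the largest, 2024, 1911 and 1867 CPM. The median log2 ratio of the members to the vehicle median was -0.39 in replicate 6 and -1.09 in replicate 2. The 20 most abundant members held 50.5% to 58.1% of the sum in acetaminophen kidneys and 47.8% to 55.97% in vehicle kidneys.

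The summed level was also somewhat lower in liver, although each member stayed inside the liver limits. At 5 h it was 1407 ± 125 CPM in acetaminophen livers and 1695 ± 151 CPM in vehicle livers (mean ± SD, n = 8 each). At 10 h it was 1566 ± 77.0 CPM in acetaminophen livers and 1680 ± 93.7 CPM in vehicle livers (mean ± SD, n = 8 each). The ranges overlapped at both times, with 1285 to 1651 CPM against 1518 to 2020 CPM at 5 h and 1386 to 1630 CPM against 1538 to 1806 CPM at 10 h. The sum is weighted to the members richest in liver. The highest of these had a vehicle liver median of 366 CPM at 5 h, against 323 CPM with acetaminophen. The next had 310 and 300 CPM. The members' median log2 ratio to the vehicle median ran from -0.09 to 0 across acetaminophen livers at 5 h. At 10 h this ratio ran from -0.11 to 0. This median says little about liver, since 107 of the 195 members were under 0.5 CPM in vehicle liver, where the ratio stays near 1. In the 69 members with at least 1 CPM in vehicle liver, the median ratio of acetaminophen to vehicle was 0.868 at 5 h and 0.877 at 10 h.

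**Figure D1:**
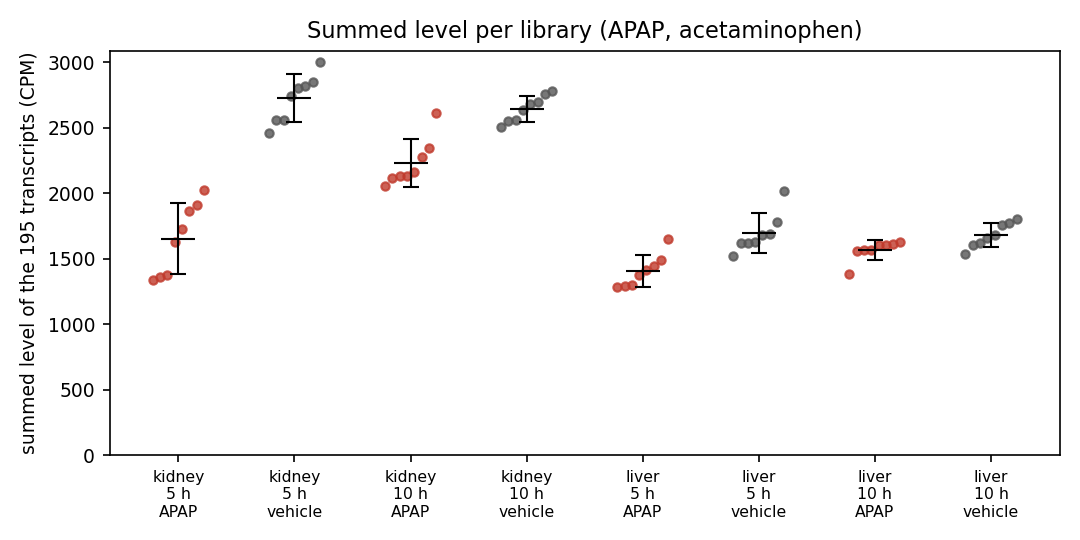
Summed level of the 195 transcripts in CPM (vertical axis) in each of the 64 libraries, by tissue, time and agent. Points are libraries (red, acetaminophen, APAP; grey, vehicle) and bars give the mean and SD of 8. In kidney the sums lie between 1340 and 2024 CPM with acetaminophen and between 2460 and 3001 CPM with vehicle at 5 h, and move closer together at 10 h.

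The question left for the kidney libraries that the rule did not use is whether the same transcripts were also lower 10 h after the dose. The livers of 10 h did take part in the choice, and with 64 libraries from 32 rats they may come from the same rats. At 10 h 14 of the 188 members that could be tested fell in acetaminophen kidney and none rose (edgeR's quasi-likelihood test on 16 libraries, with p-values adjusted by Benjamini-Hochberg across 16538 transcripts and called below 0.05). Here and below, fell and rose mean called lower or higher than in vehicle kidney at 10 h, not a change since 5 h. The 14 are 7.45% of the members tested, while 1.19% of all transcripts tested fell. For rises the count was 0 members, against 1.27% of all transcripts, so a count of 0 in 188 does not by itself set the members apart. The log2 change was below 0 in 143 of 188 members (76.1%), against 50.4% of all transcripts tested. Its median was -0.28 in members (quartiles -0.55 and -0.03) and -0.0014 in all transcripts. At an unadjusted p under 0.05, 58 members (30.9%) were lower and 3 (1.6%) were higher, against 7.52% and 7.43% of all transcripts tested. The median standard error of a member's log2 change was 0.20, against 0.12 for all transcripts, so small changes of the scarcer members were less well resolved.

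The number of calls moved with the method and with single libraries. DESeq2 called 28 members lower and 2 higher, where 2.58% of all transcripts were lower and 2.45% higher. By limma voom with library weights 29 members were lower and 3 higher, where 3.45% and 2.99% of all transcripts were. A fit of all 32 kidney libraries called 7 members lower and 0 higher, beside 0.648% and 0.694% of all transcripts. Without a filter on low counts 10 members were lower and 0 higher, beside 0.552% and 0.532%. On log2(TPM + 1), limma called 15 members lower and 0 higher, beside 1.32% and 0.514%, and on log2(TPM + 0.1) also 15 and 0, beside 1.28% and 0.49%. Over all transcripts the split on log2(TPM + 1) was 218 lower and 85 higher, against 197 lower and 210 higher by edgeR. With DESeq2's size factors in edgeR, 14 members were lower and 0 higher, beside 1.19% of all transcripts in each direction.

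Single libraries also carried calls. Without vehicle replicate 6 of the 10 h kidneys 5 members were lower, beside 0.57% of all transcripts. Without acetaminophen replicate 8 the count was 7 (0.612% of all transcripts), without acetaminophen replicate 3 it was 9 (0.71%) and without acetaminophen replicate 7 it was 9 (0.733%). In the other direction, 1 member was higher without acetaminophen replicate 2 (1.7% of all transcripts) and 2 were higher without acetaminophen replicate 6 (1.99%). The median of the members' log2 changes ranged from -0.32 to -0.27 over the 16 fits without 1 library, so the shift of the group as a whole moved less than the number of calls.

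**Figure D2:**
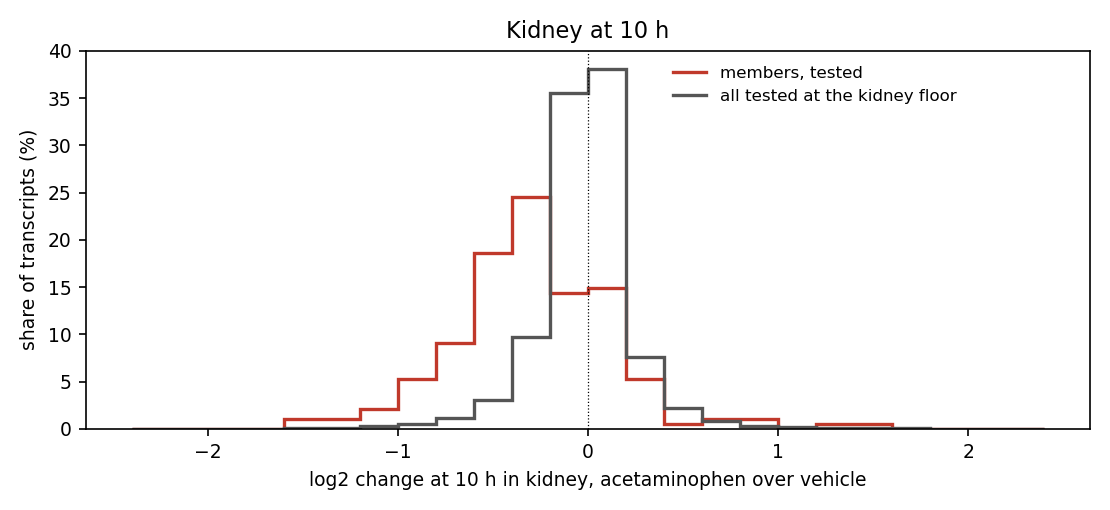
Distribution of log2 changes in kidney at 10 h, acetaminophen over vehicle (horizontal axis), as the share of transcripts per bin (vertical axis), for the 188 members tested (red) and the 14950 tested transcripts at the kidney floor (grey). The members have a median of -0.28 and the grey curve centres near 0.

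The distance between the groups was smaller at 10 h than at 5 h. The median ratio of the members was 0.844 at 10 h (quartiles 0.712 and 0.990) and 0.601 at 5 h, and 183 of 195 had a higher ratio at 10 h. These 2 values cannot be compared as results, because the members were picked for a low ratio at 5 h. At 10 h, 34 members (17.4%) still had a ratio of 0.67 or less, against 2.12% of the transcripts at the floor. Only 4 members (2.05%) had a ratio of 1.5 or more, against 1.85% at the floor. Summed over the members, acetaminophen kidneys at 10 h had a lowest value of 2054, a median of 2150 and a highest value of 2614 CPM, and vehicle kidneys 2502, 2655 and 2779 CPM. The groups overlapped only through acetaminophen replicate 4, with 2614 CPM and a median log2 ratio of 0.03, while the other 7 lay at or below 2344 CPM. In single transcripts separation was rare: all 8 acetaminophen kidneys lay below all 8 vehicle kidneys in 2 of 195 members (1.03%), against 0.314% at the floor. They lay above all 8 in 0 members, against 0.214% at the floor, so that a count of 0 is near the background.

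Vehicle kidneys were also set side by side across the times. The vehicle median of a member at 10 h was typically 0.898 times that at 5 h, while the transcripts at the floor had a median of 1.01. It was lower at 10 h than at 5 h in 140 of 195 members (71.8%), against 45.8% at the floor. The vehicle levels of 5 h took part in the choice, which favours members that were high there, so these values are a description.

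The size of the 5 h ratio and the change at 10 h were also set side by side. Over the 188 members tested, the rank correlation of the 5 h ratio with the 10 h log2 change was 0.077 (Spearman's rho across transcripts, which are not independent, over the narrow range of ratios the rule allows), and over the 14950 tested transcripts at the floor it was 0.40. Among the 33 members with the lowest ratios, 0.5 or less, 27 could be tested and none was called lower at 10 h. Their median log2 change was -0.29, and the change was below 0 in 18 of the 27. With 1.28% of the tested floor transcripts called lower, a count of 0 in 27 does not set them apart. Among the 64 members with ratios above 0.5 and up to 0.6, 5 of 63 tested fell, with a median of -0.35. Of the 98 members above 0.6, 9 fell, with a median of -0.24.

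The deepest values at 5 h stood mostly on divided counts. Reads that fit several transcripts are shared out by the quantification, which leaves estimated counts that are not whole. Counts were whole in all 32 kidney libraries for 112 members (57.4%), close to 58.2% at the floor, but for only 10 of the 33 members with a ratio of 0.5 or less. All 7 members that were too scarce to be tested at 10 h had divided counts. Their vehicle medians at 5 h ran from 1.03 to 3.89 CPM, and at 10 h from 0 to 0.525 CPM in vehicle kidneys. The member with the lowest ratio, 0.0761, is one with divided counts. At 5 h it had a lowest value of 5.71e-09, a median of 0.0260 and a highest value of 3.90 CPM in acetaminophen kidneys, and 9.26e-05, 6.41 and 12.6 CPM in vehicle kidneys. The acetaminophen median was itself near 0, and the lowest vehicle library was near 0 too, so the groups overlapped. At 10 h it had 4.41, 7.24 and 15.4 CPM in acetaminophen kidneys and 0.139, 5.45 and 8.14 CPM in vehicle kidneys, with a log2 change of 0.64 and a standard error of 0.42 (adjusted p = 0.524 in edgeR). What part the division of reads has in these values was not tested. Of the 14 members that fell at 10 h, 10 had whole counts. These were 8.93% of the 112 tested members with whole counts, while 4 of 76 (5.26%) with divided counts fell, against 1.28% of the tested floor transcripts. The difference between the 2 kinds was not tested.

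**Figure D3:**
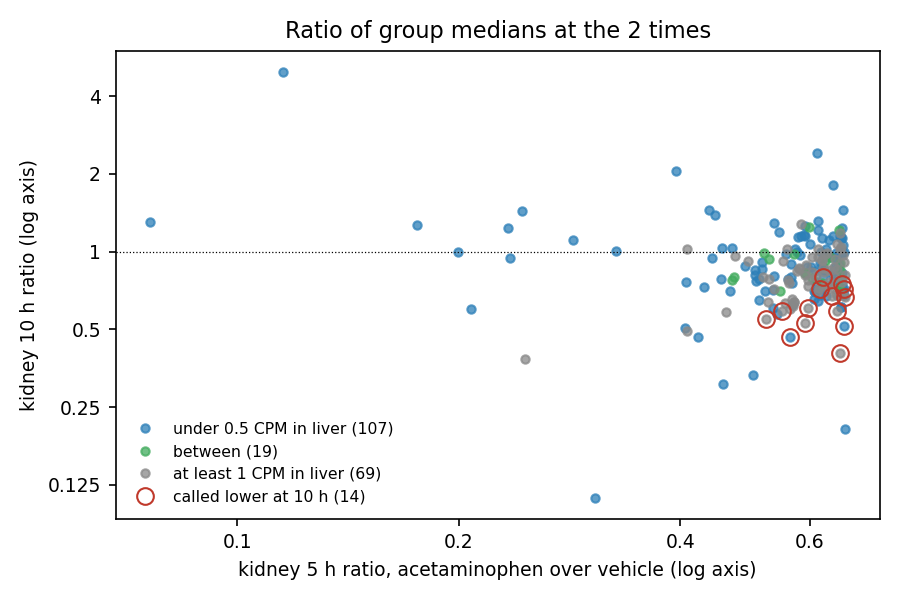
Ratio of the acetaminophen median to the vehicle median in kidney for each of the 195 transcripts, at 5 h (horizontal axis) and 10 h (vertical axis), both logarithmic and with 0.5 CPM added to the medians. Colours give the level in vehicle liver and red rings the 14 members that fell at 10 h. The members crowd between ratios of 0.5 and 0.67 at 5 h and spread to both sides of 1 at 10 h.

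Most members were kidney transcripts that liver barely expressed. The median level in vehicle liver was under 0.5 CPM at both times in 107 of 195 members (54.9%), against 12.8% at the floor, and at least 1 CPM at both times in 69 (35.4%), against 78%. The rule itself favours such transcripts, since with 0.5 CPM added a transcript near 0 in liver keeps a ratio near 1 even if it is lost there, though a rise can still take it out of the range: 95.4% of the floor transcripts under 0.5 CPM in liver met the liver conditions, against 81.5% of those at 1 CPM or more. Leaving the liver conditions out, 111 of the 291 transcripts that met the kidney conditions (38.1%) were under 0.5 CPM in liver. The share was above that at the floor in each band of kidney level. Of those 291, 50.8% of the transcripts at 1 to 5 CPM, 32.1% of those at 5 to 20 CPM and 21.4% of those at 20 CPM or more in vehicle kidney were under 0.5 CPM in liver, against 35.2%, 10.4% and 3.73% at the floor. With 0.1 CPM as the limit in place of 0.5, 68 members remained under it. In the 107 members the ratio in liver ran from 0.737 to 1.35 at 5 h and from 0.706 to 1.41 at 10 h, with a median of 1 at both times; it can show a rise from such a level, but hardly a fall.

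**Figure D4:**
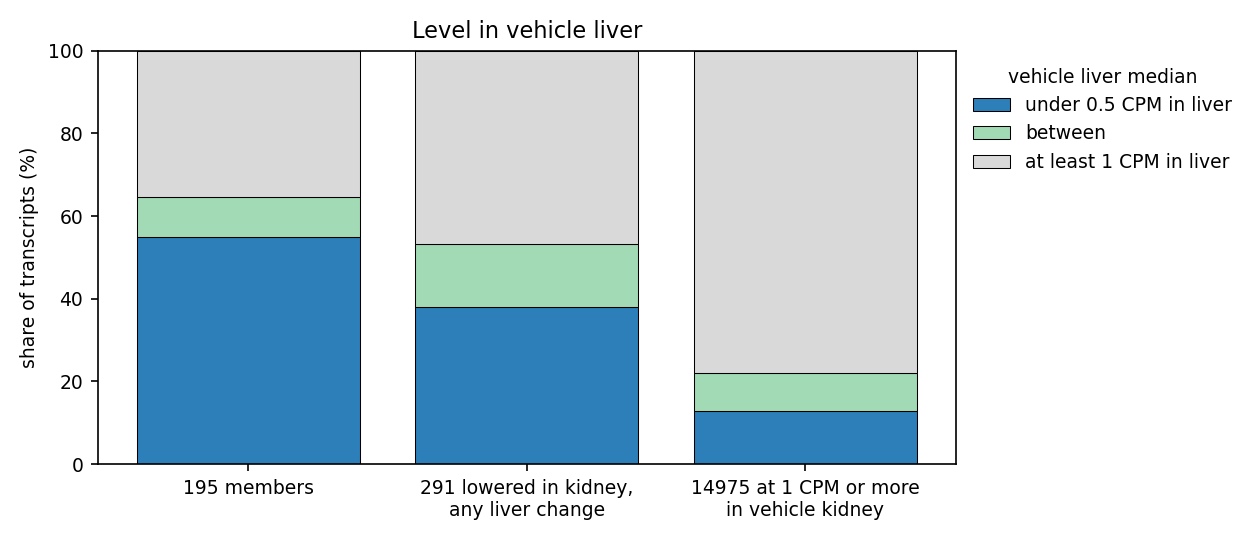
Share of transcripts (vertical axis, %) by their median level in vehicle liver, under 0.5 CPM at both times, at least 1 CPM at both times, or between, for the 195 members, the 291 transcripts that met the kidney conditions alone, and the 14975 transcripts at the kidney floor. The lowest class holds 54.9%, 38.1% and 12.8%.

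A set of 69 members did have a liver level at which a change could be seen. Their median ratio in liver was 0.868 at 5 h (range 0.671 to 1.41) and 0.877 at 10 h (range 0.673 to 1.49), inside the limits by choice but below 1 on the whole. In kidney at 10 h, 8 of these 69 fell, or 11.6%, and their median log2 change was -0.32, against 1.09% and 0.0008 for floor transcripts of the same liver class. Of the 107 members under 0.5 CPM in liver, 100 could be tested and 6 fell, or 6%, with a median of -0.24, against 2.47% and -0.03 for the floor transcripts of that class. Of the 19 members between these classes 0 fell, with a median of -0.27, against 1.24% and -0.02 for the floor transcripts of that class, so that a count of 0 is near the background. Whether the liver classes differ in their kidney change was not tested.

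The 96 transcripts that met the kidney conditions but left the liver range are the closest group for comparison. At 10 h in kidney, 14 of 188 members (7.45%) fell, with a median log2 change of -0.28. Of these transcripts, 5 of 94 (5.32%) fell, with a median of -0.32. Of the tested floor transcripts, 1.28% fell and 1.33% rose. None rose in either group, and a count of 0 in 94 is near the background. A difference between them was not tested.

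A few members had their higher level in liver. In vehicle rats at 10 h, 98 members (50.3%) were at least 4 times higher in kidney than in liver, against 23.7% at the floor, while 14 (7.18%) were higher in liver, against 12%. Of these, 6 (3.08%) were at least 4 times higher in liver, close to 2.46% at the floor. The member of this kind with the highest liver level among those that fell at 10 h had in kidney a lowest value of 17.5, a median of 23.9 and a highest value of 29.6 CPM with acetaminophen, and 27.5, 35.9 and 48.6 CPM with vehicle, with a log2 change of -0.60 and a standard error of 0.15 (adjusted p = 0.040 in edgeR). In liver at that time its medians were 300.4 CPM with acetaminophen and 312 CPM with vehicle, so the kidney level was a small part of the liver level. In kidney at 5 h one vehicle library, replicate 8, had 78.5 CPM of it, where the group median was 35.1 CPM. Whether liver tissue or RNA in the kidney samples had a part in such values was not tested.

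ENSRNOT00000019453, of 3531 bases, fell the most at 10 h of the called members with a vehicle median of at least 5 CPM at 5 h. At 10 h it had a lowest value of 4.10, a median of 6.62 and a highest value of 11.9 CPM in acetaminophen kidneys, and 10.9, 13.3 and 24.7 CPM in vehicle kidneys. The groups met only at their edges, the highest acetaminophen library lying just above the lowest vehicle library. In edgeR the log2 change was -1.14 with a standard error of 0.21 (adjusted p = 0.00898). At 5 h, where it was chosen at a ratio of 0.667, the groups overlapped widely, with 7.14, 10.8 and 17.5 CPM in acetaminophen kidneys and 5.69, 16.4 and 30.3 CPM in vehicle kidneys. It stayed at or below 0.961 CPM in all 32 livers. Its counts were whole in all kidney libraries.

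ENSRNOT00000072273, of 630 bases, was the most abundant member and has divided counts. At 5 h it had 104, 118 and 201 CPM (lowest, median and highest) in acetaminophen kidneys and 166, 188 and 221 CPM in vehicle kidneys. At 10 h it had 118, 154 and 272 CPM in acetaminophen kidneys and 187, 207 and 252 CPM in vehicle kidneys. At 5 h, 1 acetaminophen kidney lay within the vehicle range; at 10 h replicate 4 lay within it, at 197 CPM, and replicate 6 above it, while the group medians were lower with acetaminophen at both times. Its change at 10 h, -0.31 on the log2 scale with a standard error of 0.15, missed the threshold (adjusted p = 0.341 in edgeR). Without acetaminophen replicate 6 it was -0.47 and passed (edgeR adjusted p = 0.0124), and it also passed by limma voom with library weights (-0.40, adjusted p = 0.0342). In liver its median was 37.2 CPM with acetaminophen and 45.5 CPM with vehicle at 5 h, and 90.4 and 69.2 CPM at 10 h, so the order of the groups turned round between the times.

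**Figure D5:**
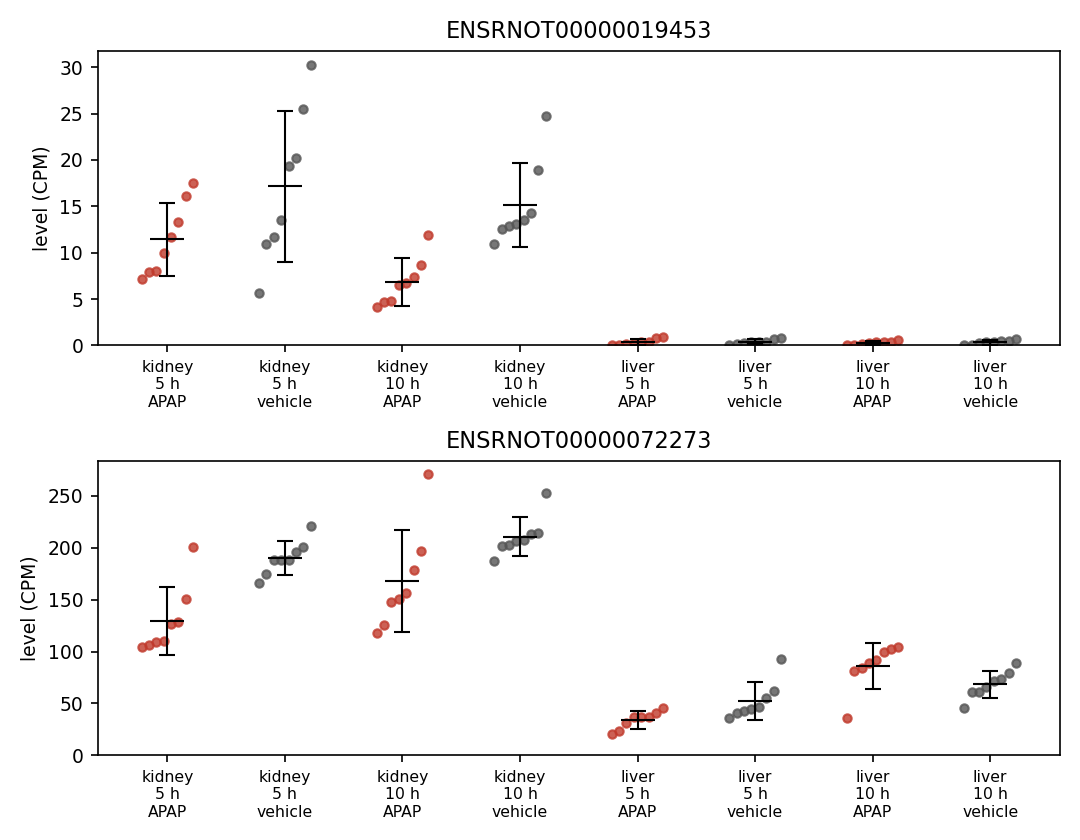
Level in CPM (vertical axes) of ENSRNOT00000019453 (top) and ENSRNOT00000072273 (bottom) in each of the 64 libraries, by tissue, time and agent, with the mean and SD of 8 libraries. The upper transcript is almost limited to kidney and has its clearest separation at 10 h (4.10 to 11.9 against 10.9 to 24.7 CPM); the lower one is found in both tissues.

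Other members show how varied the group was at 10 h. The called member with the smallest adjusted p, of 5339 bases, had a lowest value of 9.33, a median of 13.4 and a highest value of 17.1 CPM in acetaminophen kidneys, and 17.6, 25.6 and 29.5 CPM in vehicle kidneys at 10 h. No library of one group reached the range of the other. In edgeR the change was -0.82 on the log2 scale with a standard error of 0.13 (adjusted p = 0.00361), and at 5 h its medians were 11.7 CPM with acetaminophen and 20.2 CPM with vehicle. The called member with the smallest change, of 1834 bases, had medians of 19.3 CPM in acetaminophen and 24.3 CPM in vehicle kidneys at 10 h and changed by -0.27 on the log2 scale, with a standard error of 0.056 (adjusted p = 0.0196 in edgeR). The 14 called members ranged from -1.31 to -0.27.

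The opposite order also occurred. The most abundant member under 0.5 CPM in liver, of 1624 bases and with whole counts, had at 5 h a lowest value of 79.5, a median of 102 and a highest value of 157 CPM in acetaminophen kidneys, and 107, 154 and 186 CPM in vehicle kidneys. At 10 h it had 124, 159 and 184 CPM in acetaminophen kidneys and 100.4, 128 and 149 CPM in vehicle kidneys. Acetaminophen kidneys were thus the lower group at 5 h and the higher one at 10 h, with overlap at both times. The log2 change at 10 h was 0.34 ± 0.093 (SE), higher but not past the threshold (edgeR adjusted p = 0.0675). The member with the most positive change, 1.41 ± 0.56 (SE; edgeR adjusted p = 0.22), was scarce, with a median of 1.89 CPM in acetaminophen and 0.489 CPM in vehicle kidneys.

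Members were of ordinary length. Their median length was 1932 bases (quartiles 1285 and 3183), against 2048 bases (quartiles 1328 and 3162) at the floor. By kidney level, 3 of 81 tested members at 1 to 5 CPM fell at 10 h, as did 6 of 72 at 5 to 20 CPM and 5 of 35 at 20 CPM or more, against 0.75%, 1.08% and 1.65% of the floor transcripts in the same bands. The median log2 change was -0.27, -0.30 and -0.27 in these 3 bands. A larger share of members passed the test in the bands of higher level; the difference between bands was not tested.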

How the data were processed

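Libraries of poly-A RNA were made with a stranded kit and sequenced as single 75-bp reads, per the labels' protocols. For each library the authors deposited a table of 28420 transcripts, with length, estimated counts and TPM (a level per transcript length) as columns. The submitters' processing notes name kallisto 0.42.4 and Rnor_6.0. CPM were computed here from the deposited estimated counts over their sum in the library. Groups come from the agent, tissue and time labels, and replicates are numbered in deposit order.

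Members and lists were chosen with earlier results of these data known. Kidney at 10 h was tested on its 16 libraries alone, since the 5 h libraries chose the members. Rounded estimated counts went into the quasi-likelihood F test of edgeR 4.0.16 (R 4.3.3), two-sided, after filterByExpr and TMM scaling. Calls are at an adjusted p (Benjamini-Hochberg, across everything tested) under 0.05. Standard errors are the log2 change over the square root of F. Alternatives were DESeq2 1.42.0, limma 3.58.1 on log2(TPM + 1), log2(TPM + 0.1) and voom weights, other scaling, no filter, all 32 kidney libraries and leaving out each library. The fit was tested on simulated counts. The closest pair of libraries of a group had a chi-square per degree of freedom of 14.0, so none is a repeat of another in its group. Libraries of different groups were not compared in this way.

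Identifiers are printed for 2 members by a rule: the called member with the lowest 10 h change among those with at least 5 CPM in vehicle kidney at 5 h, and the most abundant member. Members described without an identifier were picked after their values were seen. The planned gene and marker lists could not be applied without gene names. Whole counts are within 0.0001 of a whole number in all 32 kidney libraries.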

Additional observations from a re-analysis of the deposited data

Results flagged for a closer look

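In 56 groups of 8 libraries whose values are described above, a single library stood apart from the others of its group in 7 cases. The cut used would flag about 1 group in 20 by chance if the groups were independent. These groups share libraries and transcripts, and some members were picked after their values were seen, so the 7 cases cannot show an excess. The member with the highest liver level among those that fell at 10 h had 78.5 CPM in vehicle kidney replicate 8 at 5 h. The called member with the smallest change had 34.5 CPM in vehicle kidney replicate 3 at 5 h, the highest of its group. The member with the lowest 5 h ratio had 0.139 CPM in vehicle kidney replicate 3 at 10 h. For ENSRNOT00000072273, vehicle kidney replicate 7 at 10 h had 252 CPM, acetaminophen liver replicate 8 at 10 h had 36.1 CPM, and vehicle liver replicate 8 at 5 h had 93.1 CPM. Summed over the members, acetaminophen liver replicate 1 at 10 h had 1386 CPM, the lowest of its group.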

How the results depend on the processing

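The median log2 change of the members at 10 h stayed below 0 in every fit run, from -0.31 to -0.21 in the fits with another method and from -0.32 to -0.27 without 1 library. The number of calls did not hold. All transcripts called in either direction numbered 407, against 265 without a filter, 232 with all 32 kidney libraries, 832 by DESeq2 and 1065 by limma voom. It ranged from 193 to 695 without 1 library, and moved by over 1.5 times without vehicle replicate 1 (266), 6 (193), 7 (235) or 8 (235) or acetaminophen replicate 3 (249), 4 (257), 5 (257), 6 (695), 7 (254) or 8 (226). Members called lower numbered 28 by DESeq2, 29 by limma voom and 7 with all 32 kidney libraries, beside 2.58%, 3.45% and 0.648% of all transcripts. Without 1 library they numbered 5 to 17. The fit with 5 called 0.57% of all transcripts lower. The fits with 17, without acetaminophen replicate 2 or 6, called 1.43% and 2.17% lower, so the background moved too. Members called higher numbered 2 by DESeq2 and 3 by limma voom, beside 2.45% and 2.99% of all transcripts. Without 1 library they numbered 0 to 2, and the fit with 2 called 1.99% of all transcripts higher. ENSRNOT00000019453 kept its call in the 16 fits without 1 library and in the 8 fits with all of them. With 0.1 CPM as the limit, 68 members were scarce in liver, against 107 with 0.5 CPM. The cause of these moves was not tested.

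Membership depends on the scale and on single libraries. With TMM-scaled CPM, 162 of 173 transcripts kept were members, with TPM 134 of 195, with 0.1 CPM added 149 of 209 and with 1 CPM added 142 of 155. Without 1 kidney library of 5 h, the rule kept 161 to 278 transcripts and 141 to 186 of the members. Where the library left out was an acetaminophen one, 1 library fewer had to lie below the vehicle median. Among the transcripts so chosen, calls lower at 10 h numbered 7 without vehicle replicate 2 (of 223) or 3 (of 222), 8 with TMM-scaled CPM and 9 with TPM, against 14. They also numbered 9 without vehicle replicate 1 (of 233) or 4 (of 196) or acetaminophen replicate 4 (of 167) or 5 (of 161). In the other direction, calls lower numbered 20 without acetaminophen replicate 8 (of 240) and 19 without replicate 1 (of 264). They numbered 18 without acetaminophen replicate 6 (of 278) or 7 (of 258), and 16 without vehicle replicate 7 (of 217) or 8 (of 248). Over all transcripts tested at 10 h, 1.19% were called lower. Without acetaminophen replicate 3 or 8, the libraries numbered 44 and 68, the rule kept 194 and 240. Library 68 had the highest correlation with a liver library of all 32 kidney libraries, 0.857, where library 44 reached 0.833. Whether this had a part in the choice of members was not tested. No paired analysis was possible because the labels give no number shared between groups.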
